A study of Oryza sativa with 4 samples.

Results

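Leaves of rice plants kept in short days (SD) were set against leaves of plants kept in long days (LD), in both genotypes of the experiment. All 4 Affymetrix Rice Genome Arrays of the series entered, 2 from SD and 2 from LD, and 28133 of 57194 probe sets were compared, those with a signal of 100 or more on at least 1 array. The SD leaves came from *hd1-3* and from wild type Zhonghua11 (WT) grown with 11.5 h of light and 12.5 h of dark, and the LD leaves from the same genotypes grown with 15 h of light and 9 h of dark. Zhonghua11 is a japonica cultivar, and *hd1-3* carries deletions and insertions that leave the flowering gene *Hd1* without function. All plants were 35 days old and were grown at 28 °C. Each combination of genotype and day length was measured once, so the genotypes serve as the replicates of a day length, and the plants behind an array are not described. Leaves were taken 3 h after the start of light in SD and 5 h after it in LD. Day length and hour of collection therefore cannot be told apart in any difference given here.

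Rice is a facultative short-day plant that heads earlier when days are short. A leaf reads the day with its phytochromes and with a circadian clock, a loop of transcription factors in which morning genes and later genes repress each other. The output of that clock reaches the florigen gene *Hd3a*, whose protein moves from the leaf to the shoot apex. Many other leaf genes, from sugar metabolism to stress responses, also follow a daily rhythm, and their level depends on how long the light has been on.

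Of the 28133 probe sets, 3831 (13.6%) differed between SD and LD, 1836 of them higher in SD (6.53%) and 1995 lower in SD (7.09%). The test was limma with a term for genotype and a term for day length, with the Benjamini-Hochberg adjusted p under 0.05 over all probe sets compared; differences are on the log2 scale of signal + 1, SD minus LD, with their standard error. The call rests on how limma estimates the spread, because 4 arrays leave 1 residual degree of freedom per probe set. With a spread that follows the signal, as used here, 3831 probe sets were called. With 1 common prior spread the fit called 0, although 5388 had an unadjusted p under 0.05. When an array was left out, the count was 348 without the SD *hd1-3* array, 154 without the SD WT array, 347 without the LD *hd1-3* array and 324 without the LD WT array, in fits that no longer hold genotype. Of 143 called genes followed through those fits, 29 kept the call in all 4 and 76 in 0, and *Hd3a*, described below, was the gene whose direction changed. The 29 include *GI*, *PRR37*, *LIS*, *DXPS*, *TIFY11a*, *HOX24*, *CKX11* and *CIPK5*.

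The called differences were mostly modest, with a median size of 0.91 on the log2 scale. A change above 2-fold was seen in 1594 of the called probe sets, and a change above 4-fold in 268, of which 77 were higher and 191 lower in SD. Without a test, 702 probe sets were more than 2-fold higher in SD in both genotypes (2.50%), 941 were more than 2-fold lower in both (3.34%) and 364 went opposite ways. Of the 364, 343 (94.2%) had a mean signal under 200 over the 4 arrays, the class that holds 8939 of all probe sets. The same class held 727 of the 1643 probe sets that went the same way in both genotypes. The fold in *hd1-3* and the fold in WT share no array, and across all probe sets Pearson's r between them was 0.39 and Spearman's rho 0.47. For 11713 probe sets at 500 or more on each array, a filter that itself removes folds reaching low signals, r was 0.75 and rho 0.68. These are descriptions, since probe sets are not independent replicates. The genotype term of the same fit called 583 probe sets (2.07%), and 152 were called by both terms.

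**Figure D1:**
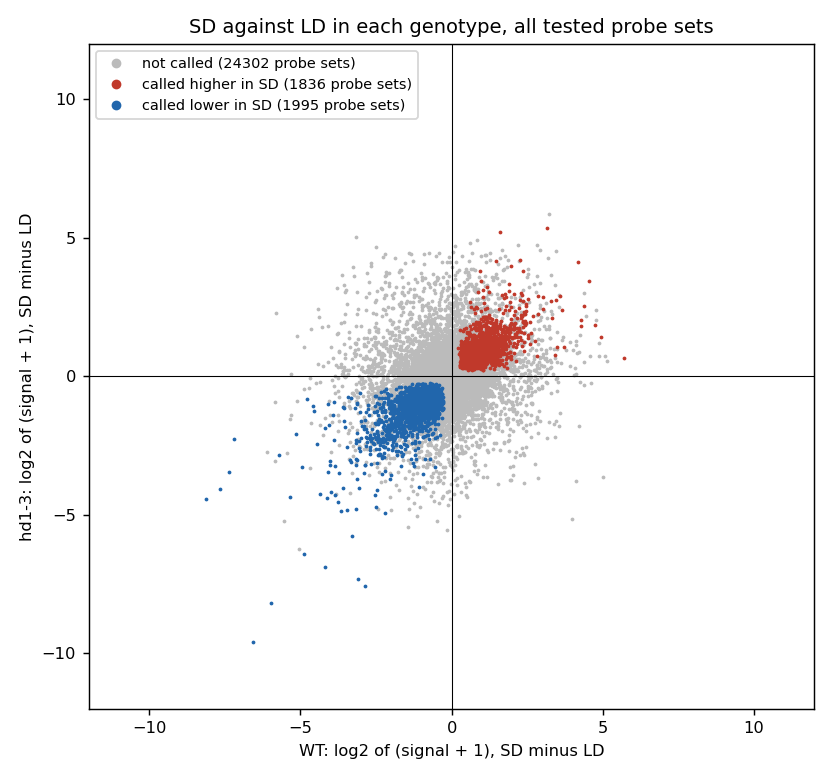
Each point is 1 of 28133 probe sets, with the log2 fold SD over LD in WT on the x axis and in hd1-3 on the y axis, both on signal + 1. The 1836 red points were called higher in SD and the 1995 blue points lower in SD, and the blue points reach farther from the centre than the red ones.

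The arrays were of like brightness, with median signals between 63.7 and 69.7 and between 24026 and 24717 probe sets at 100 or more. Across the 5 pairs of 3′ and 5′ control probe sets with both ends at 100 or more, the 3′ to 5′ ratio differed between SD and LD by -0.08 to 0.33 on the log2 scale. Brightness moved with the direction of the calls. At a mean signal of 5000 or more, 25.7% of probe sets were called higher and 8.25% lower in SD, with a median difference of 0.17, against 4.56% and 8.64% at 200 to 500. After quantile normalization the bright class held 14.6% and 12.3%. Several small rises of bright genes lost their call with that scaling, and this is said beside those named. With 1 probe set per named gene, 14952 genes were tested, of which 1202 were called higher in SD (8.04%) and 1338 lower (8.95%), with a median difference of -0.06. These are the shares beside which the gene lists stand.

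Leaf markers were bright on all 4 arrays. *RbcS*, the small subunit of rubisco, had signals of 30447 and 33062 in SD leaves, against 28788 and 31853 in LD leaves, giving the *hd1-3* array first and the WT array second within each day length, here and throughout. That probe set was not called (log2 difference 0.07, adjusted p = 0.691), but 2 dimmer ones of *RbcS* were called higher in SD (log2 differences 0.64 and 0.52, adjusted p = 0.0126 and 0.0156). Of 17 meristem and floral organ genes, 12 were under 100 on all arrays, and of 9 endosperm storage protein genes, 7 were. The exceptions included *MADS16*, a B-class floral organ identity gene, at 537 and 661 in SD leaves, against 1047 and 1145 in LD leaves, which was 1.84-fold lower in SD (log2 difference -0.88 ± 0.17, adjusted p = 0.00948). The glutelin gene *GLUA-2* had signals of 1404 and 1635 in SD leaves, against 1169.9 and 976 in LD leaves and was not called (log2 difference 0.50 ± 0.17, adjusted p = 0.0923), with -0.71 by another probe set (adjusted p = 0.81). Summed over the 17 floral and meristem genes, the signal was 1492 and 1396 in SD leaves, against 1893 and 1745 in LD leaves. The lower sum in SD rests on *MADS16*. The 5 tested members of the list had a median difference of 0.43, with 1 called lower and 0 higher. The part of such tissue in the results was not tested. With bulk leaf RNA, fewer cells of a type and less RNA per cell cannot be told apart.

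Clock genes known from the morning and from later hours differed in opposite directions. Of 8 measured members, 1 was called higher and 5 lower in SD, with a median difference of -0.79 against -0.06 over all genes. *LHY*, the MYB factor of the morning, had signals of 29613 and 32944 in SD leaves, against 16865 and 17724 in LD leaves and was 1.81-fold higher in SD (log2 difference 0.85 ± 0.10, adjusted p = 0.000633). Both SD arrays were above both LD arrays. *GI*, a clock protein of the later day that links the clock to flowering, had signals of 2536 and 2598 in SD leaves, against 8369.7 and 8678 in LD leaves and was 3.32-fold lower in SD (log2 difference -1.73 ± 0.12, adjusted p = 7.07e-05).

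The pseudo-response regulators, which follow one another through the day as repressors of the morning genes, were lower in SD in each called case. *PRR1*, the rice counterpart of Arabidopsis TOC1, gave 135 and 86.5 in SD leaves, against 708 and 613 in LD leaves, at least 5.67-fold lower in SD (log2 difference -2.60 ± 0.25, adjusted p = 0.000286). *PRR37* gave 1043 and 1483 in SD leaves, against 4147 and 4266 in LD leaves, 3.38-fold lower in SD (log2 difference -1.76 ± 0.16, adjusted p = 0.000206). For both, each LD array exceeded each SD array. *PRR73* gave 6380.3 and 8446 in SD leaves, against 10594 and 10343 in LD leaves, 1.43-fold lower in SD (log2 difference -0.51 ± 0.13, adjusted p = 0.0317), and *PRR95* gave 9421 and 10956 in SD leaves, against 13268 and 14733 in LD leaves, 1.38-fold lower in SD (log2 difference -0.46 ± 0.11, adjusted p = 0.0195). The sizes thus ran from the small differences of *PRR73* and *PRR95* to the large one of *PRR1*. *PCL1*, the rice LUX gene of the evening, read 112 and 85.2 in SD leaves, against 199 and 213 in LD leaves and was not called (log2 difference -1.07 ± 0.36, adjusted p = 0.0882), though it passed with signals under 100 raised to 100 (log2 difference -0.96, adjusted p = 0.0425). Under that setting *PRR73* lost its call (adjusted p = 0.0741). Without the genotype term *PRR73* and *PRR95* were not called (adjusted p = 0.138 and 0.105). *XCT*, whose Arabidopsis relative adjusts the clock period, read 1394 and 1688 in SD leaves, against 1535 and 1585 in LD leaves and was not called (log2 difference -0.02 ± 0.15, adjusted p = 0.941).

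Of 17 flowering genes, 15 were tested, and 2 were called higher and 3 lower in SD. *Hd3a*, the florigen, had signals of 1116 and 295 in SD leaves, against 700.4 and 4.70 in LD leaves. Both SD arrays were above the LD WT array, but the LD *hd1-3* array was above the SD WT array, so the groups overlapped. The difference was 3.19 ± 0.87 (adjusted p = 0.0411). With signals under 100 raised to 100 it was 1.12 and no longer called (adjusted p = 0.072). It rests on the low LD WT signal, since it was -0.29 (adjusted p = 0.896) without that array, 4.14 (adjusted p = 0.50) without the SD WT array, 2.23 (adjusted p = 0.733) without the SD *hd1-3* array and 6.66 (adjusted p = 0.0243) without the LD *hd1-3* array. After quantile normalization it missed the threshold (adjusted p = 0.0601).

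*DTH8*, which encodes an NF-Y subunit known to repress flowering in long days, read 83.1 and 99.7 in SD leaves, against 308 and 333 in LD leaves and was at least 3.20-fold lower in SD (log2 difference -1.80 ± 0.31, adjusted p = 0.00501). *PRR37*, which also represses flowering in long days, and *GI* make up the other called members that were lower in SD. *SE5*, the haem oxygenase that makes the phytochrome chromophore, read 14428 and 16319 in SD leaves, against 9862 and 11585 in LD leaves and was 1.44-fold higher in SD (log2 difference 0.52 ± 0.10, adjusted p = 0.0106), a call lost after quantile normalization (adjusted p = 0.11). *Hd1* itself read 60.5 and 142 in SD leaves, against 5.40 and 89.3 in LD leaves and was not called (log2 difference 1.96 ± 1.12, adjusted p = 0.306); 3 of its 4 signals were under 100, and the mutant plants carry no working copy.

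The remaining flowering genes gave no call. *Ehd3* and *Ehd4*, zinc finger proteins that promote *Ehd1*, read 922 and 721 in SD leaves, against 984 and 828 in LD leaves (log2 difference -0.15 ± 0.17, adjusted p = 0.63), and 1463 and 1598 in SD leaves, against 2067 and 2155 in LD leaves (log2 difference -0.46 ± 0.15, adjusted p = 0.0665). *Hd16*, a casein kinase, read 1629 and 1364 in SD leaves, against 1433 and 1231 in LD leaves (log2 difference 0.17 ± 0.15, adjusted p = 0.539), and *Hd18* read 1518 and 1582 in SD leaves, against 1542 and 1746 in LD leaves (log2 difference -0.08 ± 0.15, adjusted p = 0.774). *FTIP1*, which helps the florigen to move, read 313 and 276 in SD leaves, against 228 and 229.7 in LD leaves (log2 difference 0.36 ± 0.24, adjusted p = 0.393). The MADS genes *MADS50* and *MADS56*, relatives of the Arabidopsis flowering integrator SOC1, read 1241 and 2059 in SD leaves, against 1237 and 1408 in LD leaves (log2 difference 0.28 ± 0.18, adjusted p = 0.359), and 1366 and 2037 in SD leaves, against 1360.3 and 2299 in LD leaves (log2 difference -0.08 ± 0.15, adjusted p = 0.767). *MADS18* read 4369.8 and 3115 in SD leaves, against 4094 and 2162 in LD leaves (log2 difference 0.31 ± 0.15, adjusted p = 0.217). *MADS14*, which acts downstream of the florigen, read 618 and 205 in SD leaves, against 429 and 183 in LD leaves (log2 difference 0.35 ± 0.23, adjusted p = 0.382), with a higher signal in *hd1-3* than in WT at either day length. A dimmer probe set of *MADS14*, at 700.2 and 126 in SD leaves against 271 and 76.3 in LD leaves, was called higher in SD (log2 difference 1.04 ± 0.29, adjusted p = 0.0465). *MADS15* and *LFL1* were under 100 on all arrays and were not tested.

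Among 10 SET domain group genes, a family of histone methyltransferases, 0 were called. *SDG712* read 86.9 and 704 in SD leaves, against 25.8 and 912 in LD leaves (log2 difference 0.67 ± 0.44, adjusted p = 0.379), turning to -0.19 (adjusted p = 0.705) with signals under 100 raised to 100, and was far higher in WT than in *hd1-3* at both day lengths. The other 9 had differences between -0.48 and 0.43.

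Of 7 tested genes of light receptors and signalling, 2 were called higher and 2 lower in SD. *LIR1*, a light-regulated chloroplast protein and no receptor, read 10783 and 11726 in SD leaves, against 18526 and 22803 in LD leaves and was 1.83-fold lower in SD (log2 difference -0.87 ± 0.11, adjusted p = 0.000914). *PHYC*, a phytochrome, read 1339 and 1657 in SD leaves, against 2283 and 2557 in LD leaves and was 1.62-fold lower in SD (log2 difference -0.70 ± 0.15, adjusted p = 0.0126). The other phytochromes, *PHYA* at 2019 and 1849.7 in SD leaves, against 2145 and 2286 in LD leaves, and *PHYB* at 2005 and 2324 in SD leaves, against 2419.6 and 2879.7 in LD leaves, were not called (log2 differences -0.20 and -0.29, adjusted p = 0.436 and 0.215). *CRYD*, a cryptochrome of the DASH type, read 271 and 431 in SD leaves, against 142 and 141 in LD leaves and was 2.40-fold higher in SD (log2 difference 1.26 ± 0.29, adjusted p = 0.0184). *PHOT2*, a blue light receptor that steers chloroplast movement, read 11747 and 14661 in SD leaves, against 9289 and 9728 in LD leaves, 1.38-fold higher in SD (log2 difference 0.47 ± 0.11, adjusted p = 0.0257), and lost the call after quantile normalization (adjusted p = 0.166).

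Among the farthest falls in SD were genes of terpenoid synthesis, the pathway of volatile plant terpenes. *LIS*, linalool synthase on chromosome 2, had signals of 10.6 and 71.7 in SD leaves, against 8869.7 and 6927 in LD leaves, and was at least 78.4-fold lower in SD (log2 difference -8.07 ± 0.53, adjusted p = 5.29e-05). The LD signals were among bright leaf genes, and both SD signals were under 100. A gene on chromosome 8 that the study's annotation describes as a terpene synthase (*LOC4344755*) read 103 and 288 in SD leaves, against 8777 and 8534 in LD leaves and was 49.9-fold lower in SD (log2 difference -5.64 ± 0.29, adjusted p = 3.49e-05). *DXPS* on chromosome 7, a gene for the first enzyme of the plastid pathway that supplies terpene precursors, read 224 and 315 in SD leaves, against 6325 and 3478 in LD leaves and was 17.6-fold lower in SD (log2 difference -4.14 ± 0.27, adjusted p = 5.29e-05). *CLA1* on chromosome 5, another gene for that enzyme, read 3088 and 4311 in SD leaves, against 4462 and 3642 in LD leaves and was not called (log2 difference -0.14 ± 0.18, adjusted p = 0.662).

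In a terpenoid list assembled after the values were seen, 3 of 17 tested genes were called higher in SD and 2 lower, with a median of -0.08. *PSY3*, a phytoene synthase of the carotenoid branch, read 2438 and 2736 in SD leaves, against 1622 and 1319 in LD leaves and was 1.76-fold higher in SD (log2 difference 0.82 ± 0.16, adjusted p = 0.00978). *ISPF* of the precursor pathway read 3665 and 3636 in SD leaves, against 2634 and 2135 in LD leaves and was 1.54-fold higher in SD (log2 difference 0.62 ± 0.14, adjusted p = 0.0181), and *ISPG*, of the same pathway, was 1.38-fold higher in SD (log2 difference 0.47 ± 0.10, adjusted p = 0.0143) but lost the call after quantile normalization (adjusted p = 0.109).

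Of 35 jasmonate genes tested, 14 were called lower in SD and 1 higher, beside 8.95% lower over all genes. The median was -0.27, and -0.45 after quantile normalization. Jasmonates are defence hormones, and the TIFY (JAZ) proteins, which repress jasmonate responses, are known to be induced by the hormone itself. *TIFY9* read 18.5 and 95.1 in SD leaves, against 1045 and 941 in LD leaves and was at least 9.92-fold lower in SD (log2 difference -4.52 ± 0.49, adjusted p = 0.00052). *TIFY11a* read 71.6 and 75.9 in SD leaves, against 1181 and 929 in LD leaves and was at least 10.5-fold lower in SD (log2 difference -3.81 ± 0.24, adjusted p = 5.29e-05). For both genes each SD signal was under 100 and each LD signal above 900.

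The other called TIFY repressors fell less far. *TIFY10c* read 1745 and 1085 in SD leaves, against 7479 and 7092 in LD leaves, 5.29-fold lower in SD (log2 difference -2.40 ± 0.16, adjusted p = 5.84e-05), and *TIFY11c* read 1098 and 1117 in SD leaves, against 6199.6 and 5449 in LD leaves, 5.24-fold lower in SD (log2 difference -2.39 ± 0.14, adjusted p = 4.43e-05). *TIFY11d* read 1147 and 833 in SD leaves, against 4743 and 4101 in LD leaves, 4.51-fold lower in SD (log2 difference -2.17 ± 0.15, adjusted p = 5.66e-05). *TIFY11e* read 133 and 136 in SD leaves, against 759.7 and 376 in LD leaves, 3.96-fold lower in SD (log2 difference -1.99 ± 0.29, adjusted p = 0.00237), and *TIFY11b* and *TIFY10a* were 2.59-fold lower in SD (log2 difference -1.37) and 2.25-fold lower in SD (log2 difference -1.17). *TIFY11a*, *TIFY11b* and *TIFY11c* are related genes on chromosome 3, so probes of one may read another. The brightest members were not called lower. *TIFY10b* at 15566 and 12173 in SD leaves, against 17796 and 15493 in LD leaves and *TIFY6b* at 7328 and 7865 in SD leaves, against 5931 and 6622 in LD leaves were not called (adjusted p = 0.13 and 0.157), though *TIFY10b* passed as lower after quantile normalization (log2 difference -0.49, adjusted p = 0.0192), and *TIFY3* was 1.30-fold higher in SD (log2 difference 0.37 ± 0.10, adjusted p = 0.0325), a call that quantile normalization removed (adjusted p = 0.242).

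Beyond the repressors, *JAMYB*, a jasmonate-induced MYB factor, read 626 and 414 in SD leaves, against 1181 and 1939 in LD leaves and was 2.97-fold lower in SD (log2 difference -1.57 ± 0.27, adjusted p = 0.00516). *CM-LOX2*, a lipoxygenase that feeds jasmonate synthesis, read 161 and 176 in SD leaves, against 314 and 731 in LD leaves and was 2.84-fold lower in SD (log2 difference -1.50 ± 0.29, adjusted p = 0.00924). *AOC*, allene oxide cyclase of the same synthesis, was 1.46-fold lower in SD (log2 difference -0.55 ± 0.12, adjusted p = 0.0131), with signals of 5934 and 5574 in SD leaves, against 8982 and 7888 in LD leaves. *OPR10*, of the oxophytodienoate reductase family, was also called lower (log2 difference -1.48 ± 0.32, adjusted p = 0.0141), but its groups overlapped, at 1069 and 11.7 in SD leaves, against 2227 and 46.7 in LD leaves, and genotype separated its arrays far more than day length. With signals under 100 raised to 100 it was not called (log2 difference -0.53, adjusted p = 0.362). The *AOS* gene *LOC4334233*, for allene oxide synthase, read 462 and 406 in SD leaves, against 679.8 and 616 in LD leaves and was not called (log2 difference -0.58 ± 0.19, adjusted p = 0.0746).

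Chitinases and other defence proteins, a list assembled after the values were seen, had 6 of 10 tested genes called lower in SD and 0 higher, with a median of -0.57. *Cht-3* read 331 and 81.5 in SD leaves, against 1925 and 533 in LD leaves and was at least 5.57-fold lower in SD (log2 difference -2.62 ± 0.20, adjusted p = 0.0001), the lower signal in each pair being that of WT. *Cht2* read 397 and 458 in SD leaves, against 883 and 1089 in LD leaves and was 2.30-fold lower in SD (log2 difference -1.20 ± 0.18, adjusted p = 0.00245). *PBZ1*, a pathogenesis-related protein induced by probenazole, read 10512 and 12606 in SD leaves, against 14327 and 21373 in LD leaves and was 1.52-fold lower in SD (log2 difference -0.60 ± 0.11, adjusted p = 0.00823). A dimmer probe set of *Cht2* gave a smaller difference that was not called (-0.76, adjusted p = 0.0603).

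Cytokinin genes moved both ways, 5 higher and 6 lower in SD of 23 tested, in a list assembled after the values were seen. Of 5 type-A response regulators, early cytokinin targets that dampen the response, 4 were called lower, and *RR2* read 725 and 809 in SD leaves, against 1056 and 838 in LD leaves and was not called (log2 difference -0.30 ± 0.19, adjusted p = 0.354). *RR9* read 385 and 1003 in SD leaves, against 3589 and 2353 in LD leaves and was 4.67-fold lower in SD (log2 difference -2.22 ± 0.36, adjusted p = 0.00368); the study's annotation assigns its probe set to the closely related *RR10*. *RR4* read 412 and 374 in SD leaves, against 1828 and 1423 in LD leaves and was 4.10-fold lower in SD (log2 difference -2.04 ± 0.17, adjusted p = 0.000154). *RR6* and *RR1* were 2.85-fold lower in SD and 2.64-fold lower in SD (log2 differences -1.51 and -1.40). *CKX11*, a cytokinin oxidase that breaks the hormone down, read 8813 and 7444 in SD leaves, against 1144 and 1486 in LD leaves and was 6.21-fold higher in SD (log2 difference 2.63 ± 0.17, adjusted p = 5.01e-05). *CKX5*, of the same family, was called lower (log2 difference -1.39, adjusted p = 0.0417), a call lost after quantile normalization (adjusted p = 0.0651). The LOG-like genes, relatives of the enzyme that activates cytokinin, split, with *LOGL3* at 11028 and 8922 in SD leaves, against 1883 and 2573 in LD leaves, 4.50-fold higher in SD (log2 difference 2.17 ± 0.17, adjusted p = 0.000116), and *LOGL10* at 277 and 298 in SD leaves, against 1210.0 and 1289 in LD leaves, 4.34-fold lower in SD (log2 difference -2.12 ± 0.18, adjusted p = 0.000157). *LOGL1* and *LOGL5* were also called higher (log2 differences 0.70 and 0.71, adjusted p = 0.0402 and 0.0234).

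Metal transport genes, again a list assembled after the values were seen, had 8 of 33 tested called lower in SD and 1 higher. The lower ones included 4 yellow stripe-like transporters, which carry metals bound to nicotianamine. *YSL13* read 412 and 345 in SD leaves, against 1371 and 1846 in LD leaves and was 4.22-fold lower in SD (log2 difference -2.08 ± 0.20, adjusted p = 0.000327). *YSL16* read 1644 and 1394 in SD leaves, against 4338 and 4073 in LD leaves and was 2.78-fold lower in SD (log2 difference -1.47 ± 0.14, adjusted p = 0.00025). *YSL12* and *YSL9* were 2.57-fold lower in SD and 2.05-fold lower in SD (log2 differences -1.36 and -1.04). *IRT1*, an iron uptake transporter, read 177 and 197 in SD leaves, against 396 and 462 in LD leaves and was 2.28-fold lower in SD (log2 difference -1.19 ± 0.23, adjusted p = 0.00956). *NAS3*, a nicotianamine synthase, was the member called higher, at 2955 and 3383 in SD leaves, against 1184 and 1309 in LD leaves, 2.54-fold higher in SD (log2 difference 1.34 ± 0.14, adjusted p = 0.000484). The other nicotianamine synthases *NAS1* and *NAS2* went opposite ways in the genotypes and were not called. *NAS1* read 2839 and 149 in SD leaves, against 166 and 959 in LD leaves (log2 difference 0.71 ± 1.13, adjusted p = 0.738), and *NAS2* read 2009 and 181 in SD leaves, against 127 and 1144 in LD leaves (log2 difference 0.66 ± 1.10, adjusted p = 0.753).

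**Figure D2:**
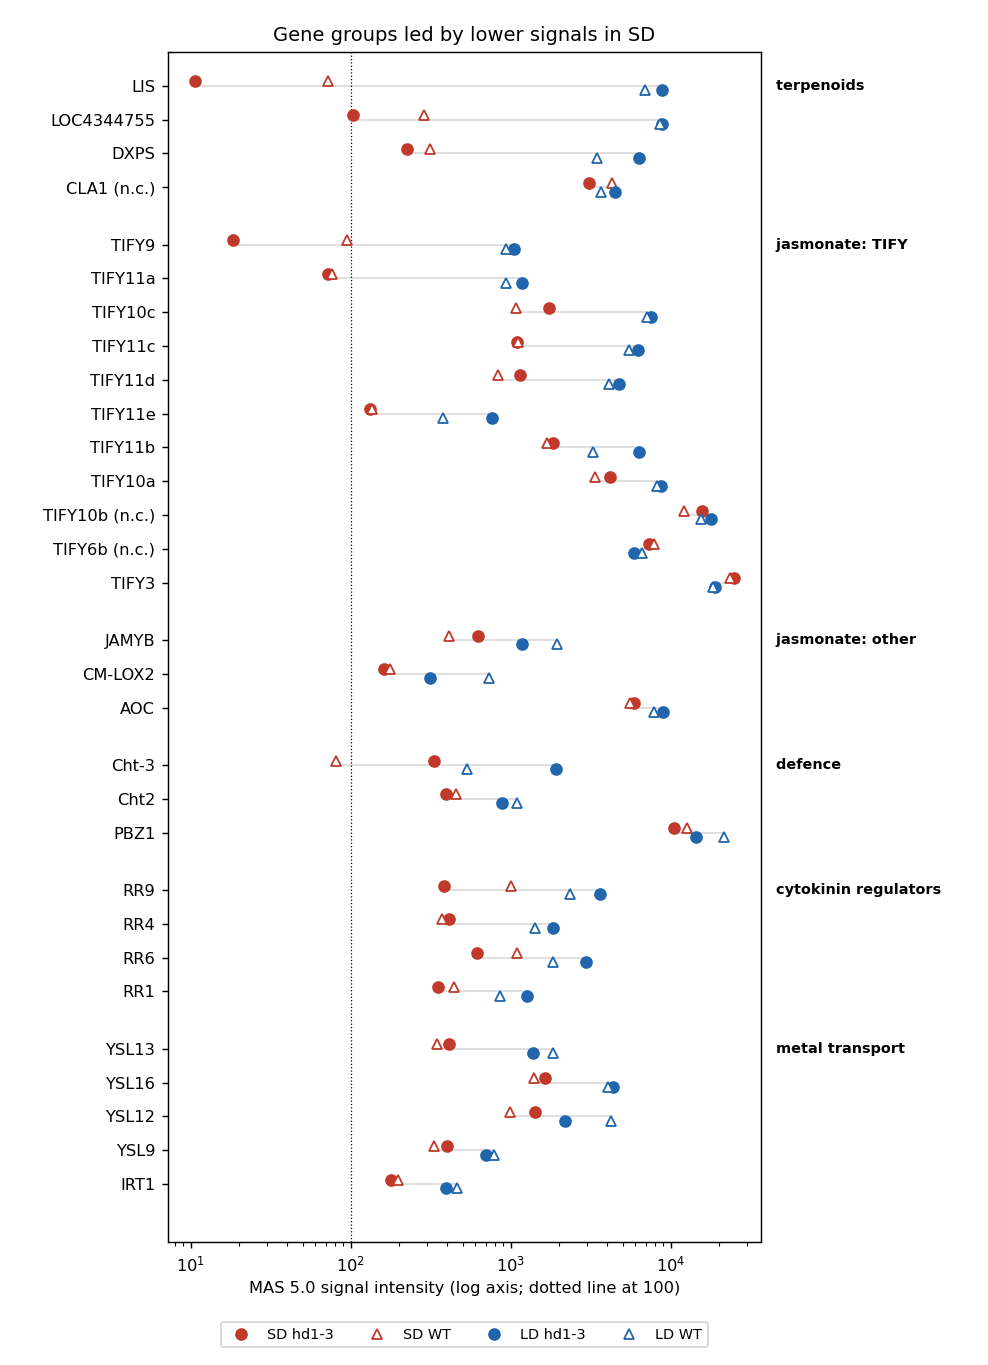
Signals on the 4 arrays, on a log axis, for gene groups whose called members were mostly lower in SD; red marks SD and blue LD, filled circles hd1-3 and open triangles WT, and n.c. marks genes that were not called. LIS, TIFY9 and TIFY11a lie left of the dotted line at 100 in SD and above 900 in LD, and the bright genes TIFY10b, TIFY6b and TIFY3 show little distance between colours.

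Other genes among the 12 lowest by the smaller of the folds in the genotypes, except *mfs1*, have no functional name in the tables used. *LOC4343433* on chromosome 7 read 89.7 and 8.96 in SD leaves, against 1503 and 2001 in LD leaves and was at least 17.3-fold lower in SD (log2 difference -5.85 ± 0.65, adjusted p = 0.000578). *LOC4330542* on chromosome 2, the brightest of them, read 1734 and 1099 in SD leaves, against 13858 and 9811 in LD leaves and was 8.44-fold lower in SD (log2 difference -3.08 ± 0.13, adjusted p = 2.09e-05). *LOC4333719*, *LOC4343616*, *LOC4343443*, *LOC4335099* and *mfs1* had log2 differences of -3.42, -3.56, -3.54, -3.21 and -3.20.

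Among the 12 genes highest in SD by the smaller of the folds in the genotypes, *LOC4328018* on chromosome 2 read 7386 and 9053 in SD leaves, against 683 and 384 in LD leaves and was 15.9-fold higher in SD (log2 difference 3.99 ± 0.23, adjusted p = 4.43e-05). The study's annotation describes it as a glycosyl hydrolase. *LOC4342551* on chromosome 7, annotated by the study as an early light-induced protein of the chloroplast, read 6526 and 16965 in SD leaves, against 1121 and 824 in LD leaves and was 10.9-fold higher in SD (log2 difference 3.45 ± 0.33, adjusted p = 0.000258). Early light-induced proteins are relatives of the antenna proteins that appear in strong light. *LOC4342395*, *LOC4339731*, *LOC4345453*, *LOC4331944* and *LOC4348336*, without a functional name in the tables used, had log2 differences of 3.11, 2.88, 2.50, 2.34 and 2.50.

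Genes of abscisic acid and dehydration had 10 of 38 tested called higher in SD and 4 lower, with a median of 0.36. *RAB21*, a dehydrin, read 725 and 754 in SD leaves, against 40.9 and 41.1 in LD leaves and was at least 7.39-fold higher in SD (log2 difference 4.14 ± 0.30, adjusted p = 8.29e-05). *LEA19*, a late embryogenesis abundant protein, read 2503 and 2030.0 in SD leaves, against 135 and 424 in LD leaves and was 9.37-fold higher in SD (log2 difference 3.23 ± 0.36, adjusted p = 0.000629). The phosphatases *PP2C68*, at 3216 and 2589 in SD leaves, against 1046 and 820.4 in LD leaves, 3.11-fold higher in SD (log2 difference 1.64 ± 0.15, adjusted p = 0.000206), and *PP2C09*, at 5316 and 4165 in SD leaves, against 2682 and 2055 in LD leaves, called higher with adjusted p = 0.00122, belong to a clade that restrains abscisic acid signalling and is known to be induced by it. *BZIP23*, a transcription factor of the response, was 1.64-fold higher in SD (log2 difference 0.71 ± 0.13, adjusted p = 0.00635).

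Not all of the response rose. *DREB1A*, a transcription factor best known for cold, read 107 and 217 in SD leaves, against 402 and 844 in LD leaves and was 3.80-fold lower in SD (log2 difference -1.93 ± 0.23, adjusted p = 0.000793). Among the phosphatases, *PP2C08* was called lower, at 189 and 257 in SD leaves, against 516 and 476 in LD leaves (log2 difference -1.16, adjusted p = 0.0112). The kinases of the pathway split, with *SAPK1* and *SAPK3* higher (0.76 and 0.79) and *SAPK6* and *SAPK2* lower (-1.04 and -0.72).

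Heat shock genes and chaperones had 12 of 46 tested called higher in SD and 3 lower, with a median of 0.10. Small heat shock proteins, which hold unfolding proteins, were among those higher in SD. *HSP18.6* read 5684 and 8607 in SD leaves, against 1052 and 1048 in LD leaves and was 6.66-fold higher in SD (log2 difference 2.73 ± 0.17, adjusted p = 4.66e-05). *HSP17.4* read 2081 and 2131 in SD leaves, against 455 and 422 in LD leaves and was 4.79-fold higher in SD (log2 difference 2.26 ± 0.17, adjusted p = 8.22e-05). *HSP18.1* and *HSP24.1* were 2.85-fold higher in SD and 2.68-fold higher in SD (log2 differences 1.51 and 1.42). *HSP17.4* and *HSP18.1* are related genes on chromosome 3 whose probes may not be fully separate.

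*CLPB-M*, a mitochondrial disaggregase, read 606 and 758 in SD leaves, against 289 and 233 in LD leaves and was 2.61-fold higher in SD (log2 difference 1.38 ± 0.23, adjusted p = 0.0038). *HSFB2A*, *HSFB2C* and *HSFC2A*, heat stress transcription factors, were 2.25-fold higher in SD, 2.17-fold higher in SD and 2.25-fold higher in SD (log2 differences 1.17, 1.12 and 1.17). *HSFA3*, of the activating class A, went the other way, at 108 and 139.8 in SD leaves, against 454 and 493 in LD leaves, 3.82-fold lower in SD (log2 difference -1.94 ± 0.26, adjusted p = 0.00131). So did *HSFB1*, of class B, at 1428 and 875 in SD leaves, against 2393 and 1608 in LD leaves (log2 difference -0.81, adjusted p = 0.00767). *HSFA4D* was called lower too (log2 difference -0.81, adjusted p = 0.0147). *HSP81-1*, an HSP90 chaperone, was 1.58-fold higher in SD (log2 difference 0.66 ± 0.11, adjusted p = 0.00367) by its brightest probe set and lower by another (log2 difference -0.75, adjusted p = 0.0139).

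All 6 called HD-Zip factors of 19 tested were higher in SD, in a list assembled after the values were seen. HD-Zip proteins are plant homeodomain transcription factors, and several of their class I answer to drought. *HOX24* read 1251 and 1217 in SD leaves, against 206 and 218 in LD leaves and was 5.80-fold higher in SD (log2 difference 2.54 ± 0.19, adjusted p = 8.38e-05). *HOX22* read 7723 and 8878 in SD leaves, against 3141 and 3436 in LD leaves and was 2.52-fold higher in SD (log2 difference 1.33 ± 0.12, adjusted p = 0.000208), and *HOX6* read 1724 and 1287 in SD leaves, against 770.1 and 673 in LD leaves and was 2.07-fold higher in SD (log2 difference 1.05 ± 0.17, adjusted p = 0.00324). The list's median was 0.31.

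Calcium sensor kinases (CIPK) and their CBL partners had 12 of 29 tested called higher in SD and 4 lower, a share of 41.4% higher beside 8.04% over all genes, in a list assembled after the values were seen. *CIPK6* read 1311 and 1819 in SD leaves, against 258 and 347 in LD leaves and was 5.14-fold higher in SD (log2 difference 2.36 ± 0.18, adjusted p = 8.38e-05). *CIPK5* read 16995 and 18259 in SD leaves, against 5123 and 5182 in LD leaves and was 3.42-fold higher in SD (log2 difference 1.77 ± 0.11, adjusted p = 4.95e-05). *CIPK10* and *CIPK3* fell, *CIPK10* at 267 and 313 in SD leaves, against 1654 and 1775 in LD leaves, 5.91-fold lower in SD (log2 difference -2.56 ± 0.18, adjusted p = 5.84e-05), and *CIPK3* at 2839.8 and 2995 in SD leaves, against 6250.1 and 5867 in LD leaves, 2.08-fold lower in SD (log2 difference -1.05 ± 0.13, adjusted p = 0.000894). A dimmer probe set of *CIPK3* was not called (log2 difference -0.41, adjusted p = 0.365). The sensors *CBL4*, which in rice takes part in salt tolerance, and *CBL10* were 2.84-fold higher in SD and 2.34-fold higher in SD (log2 differences 1.51 and 1.23).

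Sugar and starch genes had 10 of 44 tested called higher in SD and 5 lower, with a median of 0.13. Of 5 starch synthase genes, 3 were called higher and 0 lower. *SS1* read 5416 and 5482 in SD leaves, against 2839 and 2317 in LD leaves and was 2.12-fold higher in SD (log2 difference 1.09 ± 0.14, adjusted p = 0.00107), *SSII-2* read 3179 and 3746 in SD leaves, against 1524 and 1692 in LD leaves and was 2.15-fold higher in SD (log2 difference 1.10 ± 0.14, adjusted p = 0.00106), and *SSII-1* was 2.10-fold higher in SD (log2 difference 1.07 ± 0.18, adjusted p = 0.00431). The dim probe sets of *SSII-2* were not called. Of 10 sugar transporters of the SWEET family, 5 were called higher, 0 lower and 5 were not called. The higher ones included *SWEET14* at 1157 and 1768 in SD leaves, against 398 and 412 in LD leaves, 3.53-fold higher in SD (log2 difference 1.82 ± 0.19, adjusted p = 0.000506), and *SWEET1b* at 5319 and 6770.4 in SD leaves, against 2508 and 2407 in LD leaves, 2.44-fold higher in SD (log2 difference 1.29 ± 0.14, adjusted p = 0.000604). *SWEET2b*, *SWEET1a* and *SWEET2a* were higher by 1.02, 0.75 and 0.70 on the log2 scale. The bright *SWEET4* read 8896 and 7819.5 in SD leaves, against 11924 and 9148 in LD leaves and was not called (log2 difference -0.32 ± 0.11, adjusted p = 0.0982), nor was the dim *SWEET11*, at 34.8 and 30.3 in SD leaves, against 135 and 145 in LD leaves (log2 difference -2.07 ± 0.69, adjusted p = 0.0838). After quantile normalization *SWEET4* passed as lower (log2 difference -0.50, adjusted p = 0.0242) and *SWEET16* as higher (log2 difference 0.78, adjusted p = 0.0464).

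The 5 lower calls were in genes of several steps. *SUS1*, sucrose synthase, read 782 and 681 in SD leaves, against 1911 and 1742 in LD leaves and was 2.50-fold lower in SD (log2 difference -1.32 ± 0.16, adjusted p = 0.000842). *TPP1*, trehalose phosphate phosphatase, read 190.0 and 176 in SD leaves, against 696 and 522 in LD leaves and was 3.28-fold lower in SD (log2 difference -1.71 ± 0.22, adjusted p = 0.00126). *CIN1*, a cell wall invertase, *CINV1*, another invertase, and *DPE2*, which handles maltose from starch, had log2 differences of -0.79, -0.63 and -0.54.

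Phosphate starvation genes had 5 of 16 tested called higher in SD and 1 lower, in a list assembled after the values were seen. *SPX1*, a phosphate sensor protein, read 6477 and 6492 in SD leaves, against 2163 and 2488 in LD leaves and was 2.79-fold higher in SD (log2 difference 1.48 ± 0.13, adjusted p = 0.000177). *SPX2* read 6467 and 7583 in SD leaves, against 2862 and 3187 in LD leaves and was 2.32-fold higher in SD (log2 difference 1.21 ± 0.12, adjusted p = 0.000386). *MGD2*, which makes galactolipids in place of phospholipids, read 407 and 362 in SD leaves, against 55.0 and 103 in LD leaves and was at least 3.79-fold higher in SD (log2 difference 2.34 ± 0.36, adjusted p = 0.0027). The transporter *Pht1;1* cannot be given a direction, since its brightest probe set was not called (log2 difference -0.34 ± 0.16, adjusted p = 0.216) and another, at 1468 and 2406 in SD leaves against 277 and 189 in LD leaves, was called higher (log2 difference 3.03 ± 0.27, adjusted p = 0.000205).

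Aquaporins had 6 of 22 tested called higher in SD and 3 lower, in a list assembled after the values were seen. *PIP2;6*, a water channel of the plasma membrane, read 10219 and 9999 in SD leaves, against 4131 and 3693 in LD leaves and was 2.59-fold higher in SD (log2 difference 1.37 ± 0.12, adjusted p = 0.000164). *TIP2;2*, of the vacuole membrane, read 15580.4 and 18316 in SD leaves, against 7651 and 7347 in LD leaves and was 2.25-fold higher in SD (log2 difference 1.17 ± 0.12, adjusted p = 0.000339), while *TIP4;1* read 3821 and 3452 in SD leaves, against 8999.9 and 9119 in LD leaves and was 2.49-fold lower in SD (log2 difference -1.32 ± 0.12, adjusted p = 0.000229). *PIP1;1*, another channel of the plasma membrane, was 1.63-fold higher in SD (log2 difference 0.71 ± 0.10, adjusted p = 0.00148). *PIP2;2* was called by 1 probe set (log2 difference 0.67) and not by another (0.02, adjusted p = 0.991).

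**Figure D3:**
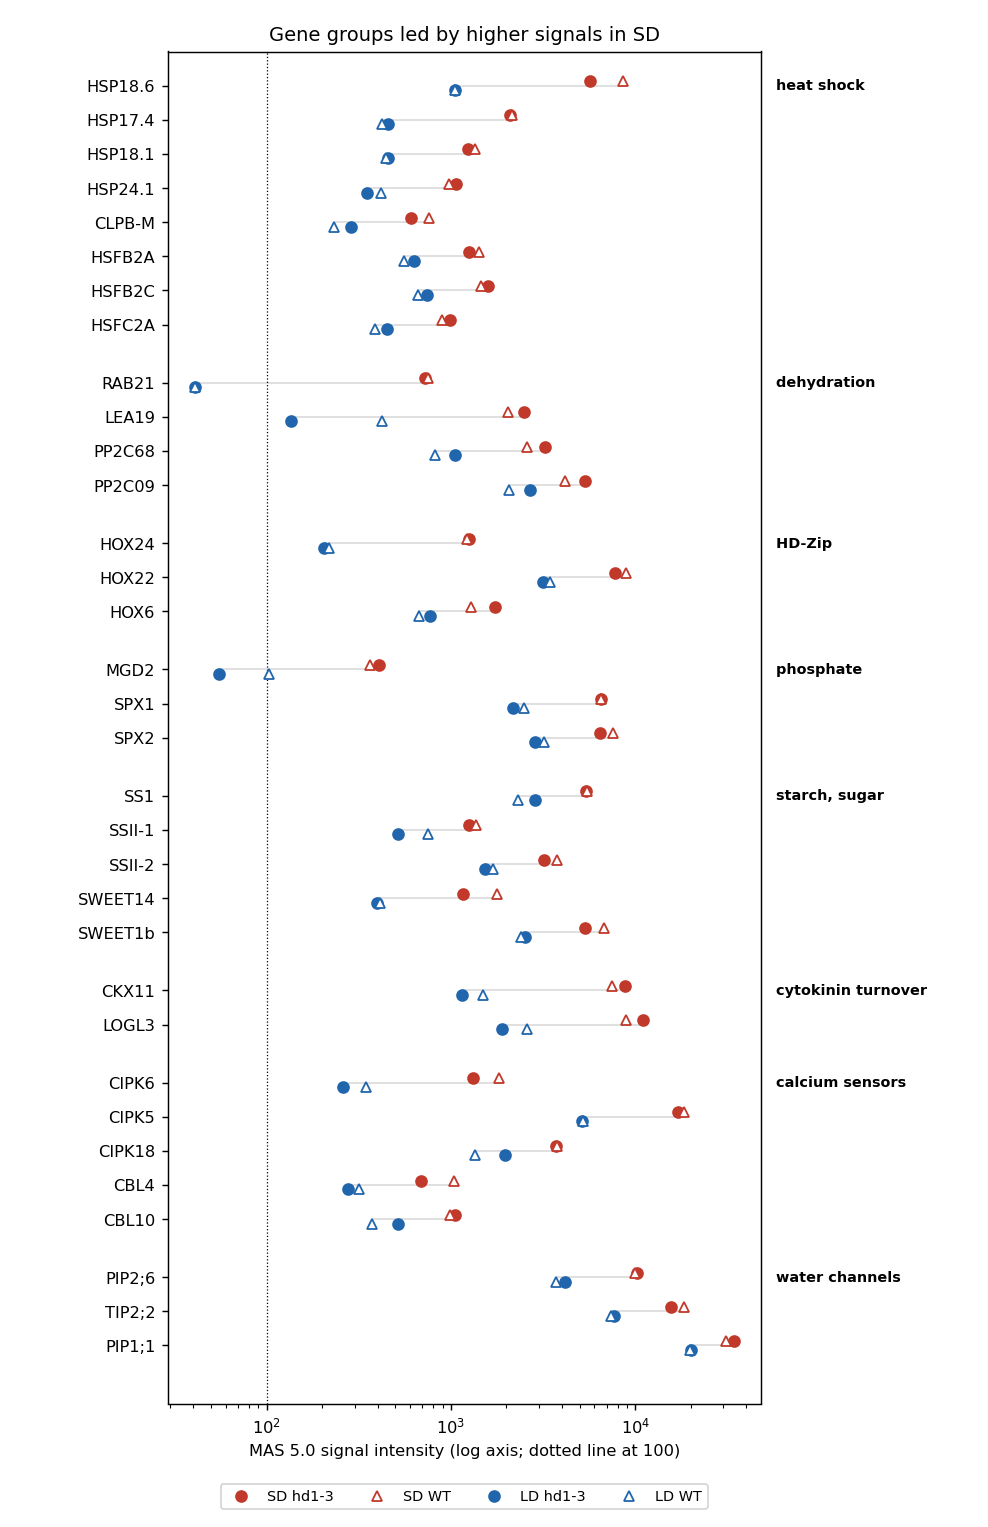
Signals on the 4 arrays, on a log axis, for gene groups whose called members were mostly higher in SD; red marks SD and blue LD, filled circles hd1-3 and open triangles WT. In each gene shown both red markers lie right of both blue ones, most widely for RAB21 (725 and 754 in SD against 40.9 and 41.1 in LD).

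Photosynthesis genes differed by list. The 3 genes of the light harvesting list, which was matched by gene name, were not called, and their median was 0.08, or -0.11 after quantile normalization. The list does not hold *LOC4342551*, the early light-induced protein gene called higher in SD above. In the Calvin cycle, 2 of 7 tested genes were called higher, both for fructose bisphosphatase, whose plastid and cytosolic forms the tables do not separate. *LOC4325071* read 23723 and 21873 in SD leaves, against 12597 and 10978 in LD leaves and was 1.94-fold higher in SD (log2 difference 0.95 ± 0.10, adjusted p = 0.000484), and *LOC4332364* was 1.39-fold higher in SD (log2 difference 0.48 ± 0.10, adjusted p = 0.0152) but lost the call after quantile normalization (adjusted p = 0.169). *RCA*, rubisco activase, read 54000.5 and 53057 in SD leaves, against 44456 and 43439.7 in LD leaves and was not called (log2 difference 0.28 ± 0.09, adjusted p = 0.0581). The glycolate oxidase genes of photorespiration *GLO1* and *GLO5* rose by 0.53 and 0.53 on the log2 scale, calls lost after quantile normalization (adjusted p = 0.0632 and 0.0539). Another probe set of *GLO1* was not called (log2 difference 0.26, adjusted p = 0.318), and *GLO4*, much dimmer, was 1.86-fold lower in SD (log2 difference -0.90 ± 0.16, adjusted p = 0.00532).

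Chlorophyll synthesis had 5 of 16 tested genes called lower in SD and 1 higher, with a median of -0.35. *PORA*, protochlorophyllide reductase, read 3861 and 2920.0 in SD leaves, against 5539.9 and 6330.3 in LD leaves and was 1.76-fold lower in SD (log2 difference -0.82 ± 0.16, adjusted p = 0.00865). *GSA*, an early enzyme of the tetrapyrrole pathway, read 4092 and 3591 in SD leaves, against 6899.8 and 5688 in LD leaves and was 1.63-fold lower in SD (log2 difference -0.71 ± 0.12, adjusted p = 0.00507). *URO-D1*, *PPOX1* and *CPX*, further steps of it, had log2 differences of -0.78, -0.66 and -0.61. *CAO*, which makes chlorophyll b, was higher (log2 difference 0.41 ± 0.11, adjusted p = 0.0413), a call lost after quantile normalization (adjusted p = 0.322).

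Nitrogen genes had 3 of 19 tested called higher and 4 lower. *AMT3-2*, an ammonium transporter gene, read 425 and 403 in SD leaves, against 883 and 1175 in LD leaves and was 2.46-fold lower in SD (log2 difference -1.30 ± 0.20, adjusted p = 0.00259). *NLP3*, a nitrate response factor, was 1.56-fold higher in SD (log2 difference 0.64 ± 0.10, adjusted p = 0.00376), and *NIA1*, nitrate reductase, was 1.42-fold higher in SD (log2 difference 0.51 ± 0.10, adjusted p = 0.00876) with the call lost after quantile normalization (adjusted p = 0.0758). Auxin genes had 10 of 48 tested called higher and 4 lower. *IAA31* read 370.1 and 285 in SD leaves, against 132 and 107 in LD leaves and was 2.71-fold higher in SD (log2 difference 1.44 ± 0.28, adjusted p = 0.00958), and the *IAA1* gene on chromosome 1 was 2.22-fold higher in SD (log2 difference 1.15 ± 0.13, adjusted p = 0.000759). The *IAA1* gene on chromosome 3 was lower (log2 difference -0.74). Aux/IAA proteins repress the auxin response and are known as early auxin targets.

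Gibberellin genes had 1 of 12 called higher, *GA20ox3* (log2 difference 0.85 ± 0.21, adjusted p = 0.0244), which makes active gibberellin precursors, and 1 lower, *CPS1* (log2 difference -1.36 ± 0.27, adjusted p = 0.00965), which opens the pathway. Phenylpropanoid genes had 1 of 19 higher and 3 lower, with *CAD6*, a cinnamyl alcohol dehydrogenase family gene, at 487 and 442 in SD leaves, against 2503 and 1711 in LD leaves, 4.45-fold lower in SD (log2 difference -2.15 ± 0.18, adjusted p = 0.000128). Antioxidant genes had 3 of 23 higher and 3 lower, with *CAT-A*, a catalase, at 16449 and 11756 in SD leaves, against 28902 and 24315 in LD leaves, 1.91-fold lower in SD (log2 difference -0.93 ± 0.11, adjusted p = 0.000642). Cellulose synthases and expansins, a list assembled after the values were seen, had 3 of 28 higher and 6 lower. The 6 were the cellulose synthases *CESA1*, *CESA4*, *CESA5* and *CESA9* and the expansins *EXP2* and *EXP10*, with log2 differences between -0.88 and -0.40. After quantile normalization *CESA5*, *CESA9* and *EXP2* were not called (adjusted p = 0.0742, 0.101 and 0.0889).

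Ribosomal protein genes had 0 of 23 higher and 2 lower, *RPL18* (log2 difference -0.71 ± 0.12, adjusted p = 0.00438) and *RPL7A-2* (log2 difference -0.44 ± 0.12, adjusted p = 0.0425). Of 51 genes for DNA replication and histones, 18 were under 100 on all arrays, and of the 33 tested 2 were called higher and 1 lower. These shares lie near or under those over all genes.

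**Figure D4:**
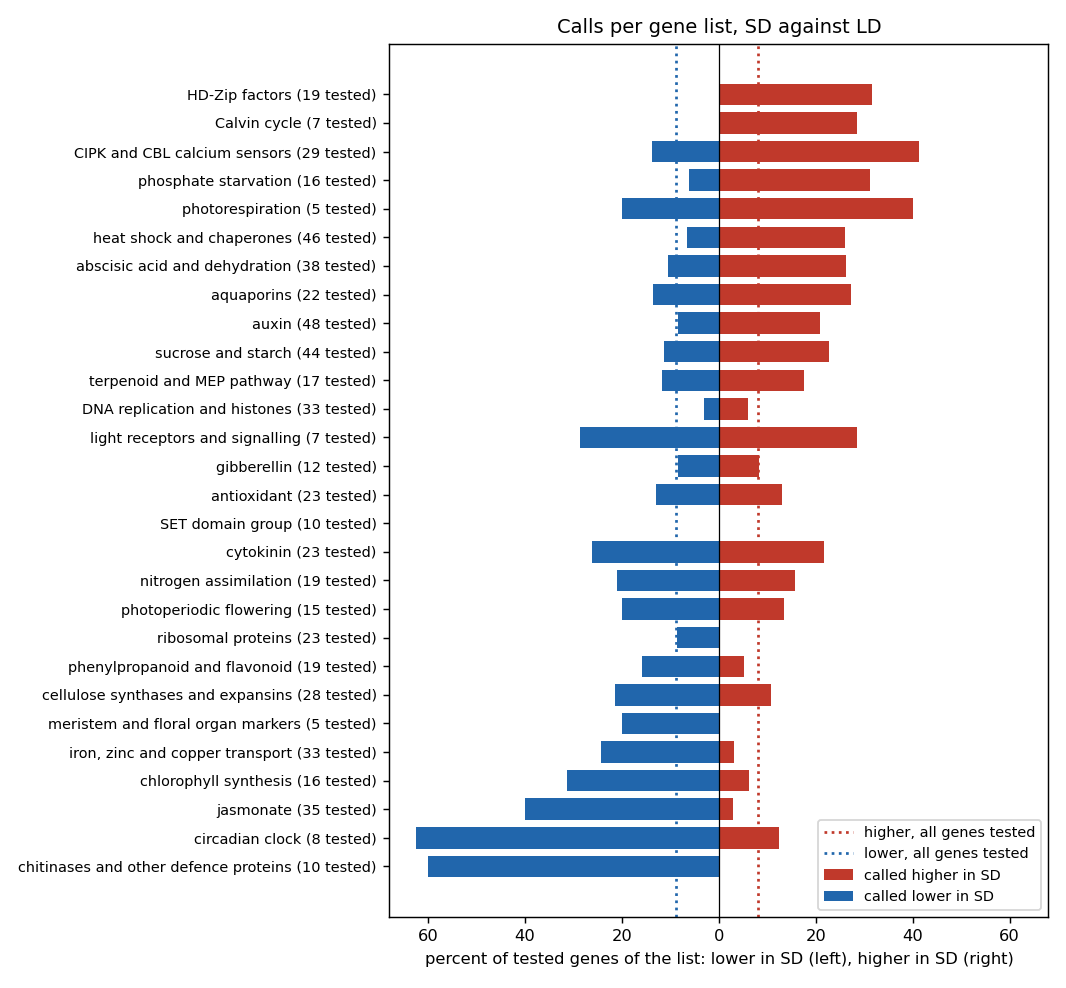
Bars give the percent of the tested genes of each list that were called higher in SD (red, right) or lower in SD (blue, left), for lists with 5 or more tested genes, and dotted lines give the same over all genes, 8.04% and 8.95%. The clock, defence and jasmonate lists extend farthest to the left, and the calcium sensor and photorespiration lists farthest to the right, although photorespiration had only 5 genes tested.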

How the data were processed

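Leaf RNA of 4 samples was hybridised to 4 one-colour arrays. The deposited values are intensities on a linear scale, computed by the authors with MAS 5.0, without detection calls; its settings were not stated in these sources. From the values, the signals share a mean of 500 after trimming 2% from each end. Each combination of genotype and day length had 1 array, and nothing says that the arrays came from separate cultures. The 1 residual degree of freedom per probe set therefore reflects how far the genotypes differ in SD minus LD. It holds no separate measure of the spread between replicates. Limma joined it with a prior spread of 8.29 degrees of freedom, taken from probe sets of like signal. The p-values thus rest mostly on that prior, and they do not measure variation between plants.

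From 57381 probe sets, 187 controls (AFFX or RPTR) were removed, and 28133 with 100 or more on at least 1 array were tested. Limma 3.58.1 in R 4.3.3 (lmFit, eBayes with trend) was fitted to log2(signal + 1), which understates folds of dim probe sets, with genotype and day length as terms. It was tested on simulated data. Bounds raise signals under 100 to 100. Tables and figures used Python 3.11.15, pandas 2.3.3, numpy 2.4.6, scipy 1.17.1 and matplotlib 3.10.9.

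Gene names came from the platform table (22436 probe sets with 1 gene, 17905 genes) through RefSeq assembly ASM3414082v1, and a gene is given by its brightest probe set. Named are the 12 highest and 12 lowest called genes by the smaller of the folds in the genotypes, the clock and flowering lists, up to 4 called members of each other list, or the 2 brightest with none called, and up to 6 genes with opposite folds; further names were chosen after their values were seen. The members and lists were chosen with earlier results of these data known, and 9 of 30 lists were assembled after the values were seen. Alternatives were another pseudocount, quantile normalization, scaling to bright medians, other filters, no genotype term, other variance priors, other probe sets and each array left out. No sequences are shown, and promoter motifs were not analysed here.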

Additional observations from a re-analysis of the deposited data

Results flagged for a closer look

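In 6 genes the difference between SD and LD went opposite ways in the genotypes, by the fold SD over LD with signals under 100 raised to 100; each genotype has 1 array per day length, so the difference between the genotypes was not tested. *NAS1*, a nicotianamine synthase, had a log2 fold of 4.10 in *hd1-3* and -2.69 in WT, a gap of 6.79. *NAS2*, another nicotianamine synthase, had 3.98 in *hd1-3* and -2.66 in WT, a gap of 6.65. *LOC4332506*, which the study's annotation calls an asparagine synthetase, had 2.88 in *hd1-3* and -1.43 in WT, a gap of 4.32. *LOC4339688*, an expressed protein without a named function, had 2.46 in *hd1-3* and -1.66 in WT, a gap of 4.12. *LOC4349188*, annotated by the study as a glutathione S-transferase, had 1.91 in *hd1-3* and -1.15 in WT, a gap of 3.06. *ZIP2*, a metal transporter gene, had 1.29 in *hd1-3* and -1.31 in WT, a gap of 2.60. These genes were chosen as the most opposed of all, so the size of their gaps is a description.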

How the results depend on the processing

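Fits without an array leave out genotype as a term, so both changes act together in them. They called 154 to 348 probe sets, 47 to 165 higher and 107 to 211 lower in SD. All 4 arrays without the genotype term called 1298, 662 higher and 636 lower. Limma with 1 common prior spread called 0 in either direction, with 5388 at an unadjusted p under 0.05; of other settings, 32 added before log2, quantile normalization, scaling to bright medians, other filters and a robust prior called between 3314 and 4075. Quantile normalization gave 1688 higher and 1626 lower, and 3092 of its calls were shared with the 3831. Above 2-fold in both genotypes, the count of 702 higher in SD became 459 with 32 added and 334 at 500 or more on at least 1 array, and the 941 lower became 466 with that filter; above 4-fold there were 93 higher and 178 lower. Of 179 genes followed, quantile normalization cost 13 of them their call, raising signals under 100 to 100 cost 14 and dropping the genotype term 45. Direction turned in *Hd3a* without the LD WT array (-0.29, against 6.66 without the LD *hd1-3* array) and with another probe set in *HSP81-1* (-0.75), *SSII-2* (-0.61) and *Pht1;1* (3.03). Among genes that were not called, it turned in *SDG712* with signals under 100 raised to 100 (-0.19), in *GLUA-2* with another probe set (-0.71), and after quantile normalization in *CAB2R* and *LHCP* (-0.11 each), *XCT* (0.03) and *ZIP2* (0.08), the last 2 also with scaling to bright medians (0.01 and 0.02); the cause was not tested. The arrays carry no detection calls, and the smallest called differences lie in bright probe sets. In simulated arrays false calls fell mostly among dim probe sets, but those arrays took their spread from the fit itself and held no shift with brightness. They therefore cannot show whether the small differences of bright probe sets are real. No paired analysis beyond the genotype term was possible because each combination of genotype and day length was measured once. The promoter motif search was not run.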
